A study of Mus musculus with 2 samples.

Results

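The genes described here are the 3 members of the Brinp family, Brinp1 (ENSMUSG00000028351), Brinp2 (ENSMUSG00000004031) and Brinp3 (ENSMUSG00000035131), found by symbol among the 33696 genes of the deposited count tables. The family was chosen by its measured values, the UMIs per class of the control against the library labelled knockout, with earlier results of these data known, so its levels and the differences between libraries are descriptions. The 2 libraries are single-nucleus RNA sequencing of mouse hippocampus at postnatal day 19. The control mice were Cicflox/flox, with both copies of Cic floxed; Cic is the gene of Capicua, a repressor of transcription. The other library came from Emx1-Cre; Cicflox/flox littermates and is labelled knockout; all mice of both groups carried the floxed alleles, and Emx1-Cre acts in the lineage of dorsal telencephalic progenitors, which gives rise to hippocampal excitatory neurons and much of the glia but not to microglia or most interneurons. For each genotype tissue of 3 mice (2 males and 1 female, 1 hippocampus per mouse) was pooled into 1 library.

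BRINP proteins are named for their induction by bone morphogenetic protein (BMP) and retinoic acid in neural cells. They carry a membrane attack complex/perforin (MACPF) domain, which they share with the astrotactins Astn1 and Astn2. The genes are expressed mainly in the nervous system, and forced expression of BRINP proteins is known to slow cell cycle progression, which has been studied most for Brinp1.

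In the control library 25907 barcodes carried 314453640 unique molecular identifiers (UMIs, each standing for 1 captured RNA molecule), and 23207 barcodes carried 252995761 UMIs in the library labelled knockout. After filters and removal of called doublets, 21783 and 20569 nuclei were used, with medians of 9786 and 8765 UMIs. Nuclei fell into 40 clusters made without the Brinp genes, and 16 classes named by marker genes ("X-like") had at least 100 nuclei in each library. Levels are given as CPM, counts scaled so that each class sums to 1000000 UMIs over all genes. As each group is a single library, no replicate error can be had and nothing is tested; the 95% intervals printed allow for counting error only. The size rule used below asks for 2-fold or more between the libraries, with a minimum of 50 UMIs and 10 CPM in the one with more; it is no test. Cic was not at a lower level in the library labelled knockout (490 and 473 UMIs, 9.05 and 12.4 CPM in dentate granule-like nuclei, log2 ratio 0.45); where the floxed part lies in the gene is not given in the sources used here, so this does not check the deletion. Etv4, a known Capicua target, had 58 and 4301 UMIs there. The libraries shared 175 barcodes.

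Brinp3 stood out in dentate granule-like nuclei, the excitatory neurons whose mossy fiber axons project to CA3. The control library had 7526 Brinp3 UMIs over 4400 nuclei, or 139 CPM (136 to 142). The library labelled knockout had 396 UMIs over 3390 nuclei, or 10.3 CPM (9.35 to 11.4). The log2 ratio of the labelled knockout over the control was -3.75 (-3.90 to -3.60), the lowest of the 8418 genes that met the minimum in this class. Brinp3 was the only member past the size rule here, lower, as were 1.07% of all genes with enough counts. Since this contrast was part of the choice of members, nothing is read from that share.

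Both sexes of each pool lay on the same side. Female nuclei, which come from 1 mouse per library, held 173 CPM in the control and 8.15 CPM in the library labelled knockout (log2 ratio -4.40). Male nuclei, from 2 mice per library, held 120 and 12.4 CPM (log2 ratio -3.27). The lower of the control values, from males, was above both values of the library labelled knockout.

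The share of nuclei with Brinp3 differed as well. At least 1 Brinp3 UMI was found in 44.3% of control granule-like nuclei and in 7.43% of those of the library labelled knockout, at median depths of 11782 and 10842 UMIs. Thinning to 2000 UMIs, which left out 1 and 5 shallower nuclei, gave 18.5% and 1.92%. Nuclei with 5 or more Brinp3 UMIs numbered 529 of 4400 in the control and 10 of 3390 in the library labelled knockout. In microglia-like nuclei, used here as a measure of free RNA because they should lack the gene, 4.51% and 2.65% had a Brinp3 UMI at median depths of 2130 and 1719 UMIs. The level in the granule-like nuclei of the library labelled knockout, 0.117 UMI per nucleus, was 3.59 times that of its microglia-like nuclei, against 32.2 times in the control, but these nuclei also held more UMIs in all. Per UMI the order in the library labelled knockout was the reverse, with 10.3 CPM (9.35 to 11.4) in granule-like and 18.1 CPM (13.3 to 23.96) in microglia-like nuclei; in the control it was 139 and 24.2 CPM. Thinned to 2000 UMIs, 4.496% and 2.52% of the microglia-like nuclei deep enough to be thinned (823 of 1486 and 515 of 1474) had a Brinp3 UMI. The scales thus give opposite orders for the library labelled knockout, and how much of its remaining granule-like Brinp3 is free RNA was not tested; with the microglia-like level per nucleus subtracted from both libraries the log2 ratio was -4.17.

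**Figure D1:**
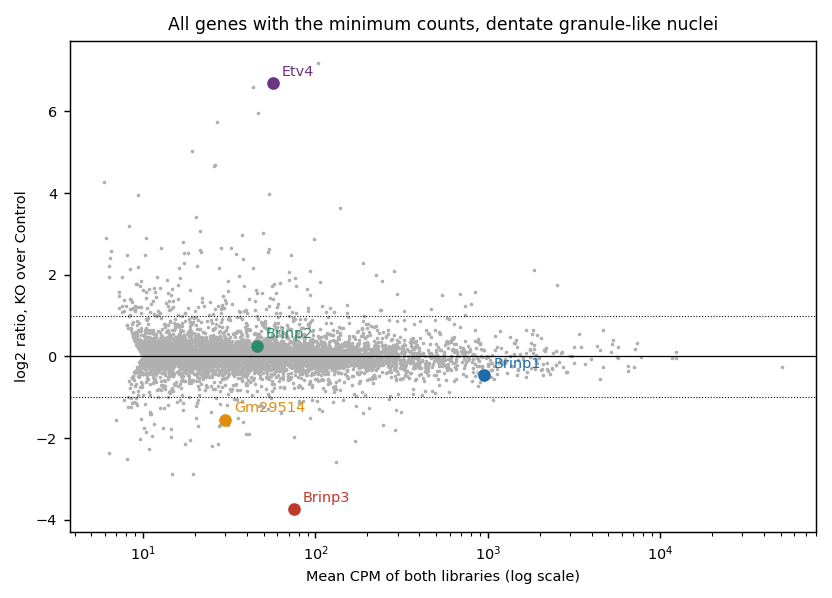
Every gene with enough counts in dentate granule-like nuclei: mean level of both libraries in CPM (log axis) against the log2 ratio of the library labelled knockout over the control, with dotted lines at 2-fold. Brinp3 (-3.75) lies lowest, Brinp1 (-0.46) and Brinp2 (0.26) lie within 2-fold, Gm29514, which overlaps Brinp3, is at -1.55, and Etv4 is shown at 6.70.

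Different clusters held most granule-like nuclei in the 2 libraries, and Brinp3 differed between these clusters. Cluster 1, led by Bmp6, held 1010 nuclei of the control and 3247 of the library labelled knockout. Cluster 3, led by Glis3, held 3390 and 143 nuclei. All 8 granule markers were raised in both clusters. In cluster 1 Brinp3 was at 33.6 CPM in the control and 9.96 CPM in the library labelled knockout (log2 ratio -1.75, -1.97 to -1.54). In cluster 3 it was at 166.8 and 18.7 CPM (log2 ratio -3.13, -3.70 to -2.66), the second value resting on 32 UMIs in 143 nuclei. Within the control library Brinp3 thus differed between the granule clusters beyond counting error, and in both clusters it was lower in the library labelled knockout.

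Brinp1 differed along the granule lineage. In the control library it went from 72.9 CPM in immature cluster 0, the cluster with the most Calb2 and Dcx, through 624 CPM in immature cluster 12 to 1115 and 1099 CPM in granule clusters 1 and 3. Brinp3 was at 33.9, 24.4, 33.6 and 166.8 CPM in the same order, high in cluster 3 alone of the 4. In immature cluster 0 Brinp3 was 33.9 CPM in the control and 31.1 CPM in the library labelled knockout, and the interval of the log2 ratio held 0 (-0.12, -0.37 to 0.12). In cluster 12 the values were 24.4 and 10.0 CPM from 135 and 45 UMIs (-1.28, -1.81 to -0.79). The interval of cluster 12 lay wholly below that of cluster 0, and the whole immature class gave -0.35 (-0.56 to -0.13). Per UMI, cluster 12 was near the microglia-like level in the control (24.2 CPM) and below it in the library labelled knockout (18.1 CPM). Nuclei of cluster 12 were deeper, with medians of 8572 and 7674.5 UMIs against 2130 and 1718.5 UMIs in microglia-like nuclei. The per-UMI scale alone thus does not measure the part of free RNA in cluster 12, which was not tested. No direction is therefore read from cluster 12. The whole immature class was 3.13 and 3.28 times the microglia-like level per nucleus, and the part of free RNA in its ratio was not tested.

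**Figure D2:**
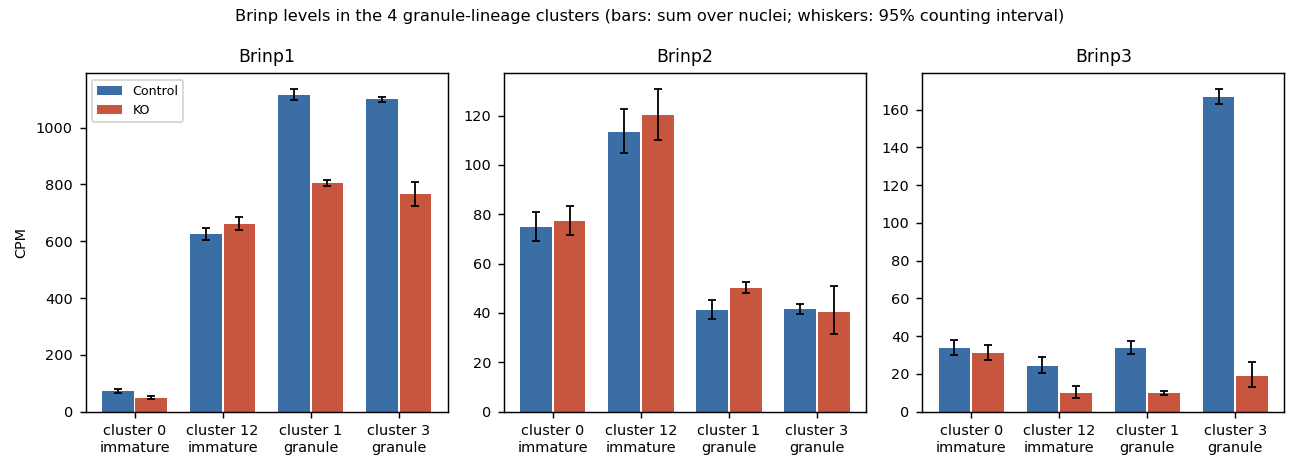
Brinp1, Brinp2 and Brinp3 in CPM (bars, from 0) in the immature granule clusters 0 and 12 and the granule clusters 1 and 3, for the control and the library labelled knockout (KO); whiskers are 95% counting intervals over nuclei summed per library. Brinp3 differs least in cluster 0 (33.9 and 31.1) and most in cluster 3 (166.8 and 18.7).

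In each short list of granule neuron state, 1 gene was past the size rule, a larger share than the background given below. The lists were chosen with earlier results of these data known, so nothing is read from these shares. Of 8 genes of mature granule neurons, 7 had enough counts and 1, Rasgrp1, a Ras guanine nucleotide exchange factor, was past the size rule, lower (log2 ratio -2.88); their summed level was 3344 and 2561 CPM. Tdo2, of the same list, went the other way, at 14.6 and 27.2 CPM (0.90, under 2-fold). Within clusters the mature sum was 2902 and 2536 CPM in cluster 1, with Rasgrp1 at -1.79 and Tdo2 at 2.26, and 3460 and 3107 CPM in cluster 3, with -1.80 and 1.26. Of 8 genes of immature neurons, 6 had enough counts and 1, Dcx, which encodes doublecortin, was past it, higher (log2 ratio 1.07); the sums were 114 and 178 CPM. Within clusters the immature sum was 195.7 and 180.9 CPM in cluster 1, with Dcx at -0.06, and 92.1 and 117.6 CPM in cluster 3, with Dcx at 1.22. The dorsal list (4 genes) summed to 115 and 72.1 CPM with Gsg1l lower (-1.36). Within clusters the dorsal sum was 134 and 72.6 CPM in cluster 1 and 110 and 60.3 CPM in cluster 3. Lct, of the dorsal list, went the other way in cluster 1, at 16.4 and 34.1 CPM (1.05), and was at 41.9 and 42.7 CPM in cluster 3 (0.04). The ventral list (4 genes, of which 1 had enough counts) summed to 35.9 and 63.7 CPM with Trhr higher (1.59, from 15.4 to 46.6 CPM). Grp, another ventral gene, was below the minimum and lower in cluster 1, at 11.6 and 1.31 CPM. The background in this class was 1.07% of genes lower and 2.28% higher. The median log2 ratio over all genes with enough counts was 0.02. Of the 8 granule markers that named the class, 2 were at least 2-fold lower, and their sum was 5123 and 3773 CPM. The class with the most Brinp3 was oligodendrocyte precursor-like; its markers summed to 1100.4 and 1114 CPM in the granule-like nuclei, and none of 8 was past the size rule. Hilar mossy cell markers summed to 75.4 and 34.9 CPM and Cajal-Retzius markers to 8.74 and 48.2 CPM, with 1 of 8 past the size rule in each, lower and higher respectively. The part of these markers in the Brinp3 result was not tested.

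In granule-like nuclei of the library labelled knockout, the counting intervals of Brinp3 overlapped between nuclei with and without an Etv4 UMI. Brinp3 there is below the microglia-like level per UMI, so nothing is read from the overlap. Granule-like nuclei with no Etv4 UMI held 11.6 CPM of Brinp3 (9.77 to 13.8, 1119 nuclei), and those with at least 1 held 9.79 CPM (8.63 to 11.05, 2271 nuclei). For Brinp1 the same split gave 846 CPM (829 to 863) and 785 CPM (775 to 796), which did not overlap. The nuclei without an Etv4 UMI had a median of 10056 UMIs and the others 11236. In immature granule-like nuclei of that library the Brinp3 intervals did not overlap. Nuclei without an Etv4 UMI held 28.4 CPM (24.5 to 32.6) and those with one 18.6 CPM (15.4 to 22.4). Their median depths were 3450.5 and 4502 UMIs. The second level was near that of microglia-like nuclei (18.1 CPM), and the part of free RNA and depth in this split was not tested. Brinp1 in the same immature nuclei went the other way, at 199 and 333 CPM. The immature class holds clusters 0 and 12, which differ in both genes, and the part of the clusters in this split was not tested.

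Of the 3 counted genes that overlap Brinp3, 1 met the minimum in granule-like nuclei. Gm29514, on the opposite strand in the GENCODE M21 annotation, had 2416 and 584 UMIs in granule-like nuclei (log2 ratio -1.55) and was past the size rule, lower. Gm15584, also on the opposite strand, had 203 and 9 UMIs and was below the CPM minimum. A230059L01Rik had 17 and 6 UMIs. Whether the counting kept the strands apart is not given in the sources used here. Whether reads of Brinp3 were counted for these genes, or the reverse, therefore cannot be told. In the RefSeq table Brinp3 is flanked by Rgs21 and Rgs18 on the side before it and by Pla2g4a, then Ptgs2, on the side after it. Ptgs2, which encodes cyclooxygenase-2, had 189 and 15 UMIs in granule-like nuclei (3.49 and 0.392 CPM) and did not reach the minimum. Values of the other flanking genes, among them the direct neighbours, are not given here, so nothing is read about the region. In CA3-like nuclei, where no direction is read for Brinp3, Ptgs2 had 548 and 224 UMIs and was past the size rule, lower (-1.02), as were 0.379% of genes there.

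The promoter windows of the family are shown because Capicua is known to bind octamers of the form TGAATGAA, TGAATGGA, TCAATGAA and TCAATGGA. The set of RefSeq (GRCm38.p6) promoter windows used here covered 2 of the 3 genes and held none for Brinp2. Each window runs from 250 bases before to 50 after an annotated start, 5′ to 3′ on the strand of the gene, and the single capital marks the annotated first base. Brinp3 has 3 starts on the plus strand of chromosome 1, of which start 1 (chr1:146495379-146495678) and start 3 (chr1:146497437-146497736) are printed; start 2 lies 37 bases after start 1. Brinp1 has 1 start on the minus strand of chromosome 4 (chr4:68954348-68954647).
Brinp3, start 1: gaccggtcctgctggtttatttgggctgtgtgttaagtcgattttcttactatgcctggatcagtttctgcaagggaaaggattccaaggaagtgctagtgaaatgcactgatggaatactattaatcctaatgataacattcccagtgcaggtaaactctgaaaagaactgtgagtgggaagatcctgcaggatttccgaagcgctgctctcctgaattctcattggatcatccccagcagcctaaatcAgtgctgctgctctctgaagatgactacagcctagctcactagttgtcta
Brinp3, start 3: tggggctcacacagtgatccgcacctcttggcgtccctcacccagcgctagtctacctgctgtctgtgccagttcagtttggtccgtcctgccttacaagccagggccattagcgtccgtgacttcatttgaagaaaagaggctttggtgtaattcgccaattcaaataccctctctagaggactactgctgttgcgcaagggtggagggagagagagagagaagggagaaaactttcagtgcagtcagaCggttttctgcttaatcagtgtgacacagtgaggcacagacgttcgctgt
Brinp1: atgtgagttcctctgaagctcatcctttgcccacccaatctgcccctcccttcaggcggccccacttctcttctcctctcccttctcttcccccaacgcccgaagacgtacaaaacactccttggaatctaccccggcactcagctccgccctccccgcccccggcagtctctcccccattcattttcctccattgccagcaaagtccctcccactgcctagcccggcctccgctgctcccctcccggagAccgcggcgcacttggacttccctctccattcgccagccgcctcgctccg
None of the 4 octamers occurs on either strand of these windows or of the window of Brinp3 start 2. Over all 32851 windows of the table, 1260 (3.84%) hold at least 1 of them. The absence says only that these letters are not in these 300 bases. The Brinp1 window is 63.3% G or C, against 45.3% and 52.3% for the printed Brinp3 windows.

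Outside the granule lineage Brinp3 was highest in oligodendrocyte precursor-like nuclei in both libraries. Oligodendrocyte precursor-like nuclei, the proliferating glia that give rise to myelinating cells, held 2290.4 CPM in the control and 2131 CPM in the library labelled knockout (log2 ratio -0.10, -0.14 to -0.07), with a UMI in 98.8% and 98.6% of nuclei. Next among the named classes of the control were subicular or cortical excitatory-like (983 and 849.8 CPM, -0.21) and Adarb2-lineage interneuron-like nuclei (863 and 827 CPM, -0.06). Committed precursor-like (844 and 920.02 CPM, 0.12) and cycling progenitor-like nuclei (734 and 693 CPM, -0.08) followed. Clusters that stayed unnamed are not in this order. Among them, the Fn1 cluster given under Other observations held more in the control than the subicular or cortical class. In the library labelled knockout the committed precursors came before the subicular or cortical nuclei, with counting intervals that did not overlap, but female nuclei had the reverse order (688 and 962 CPM). The sexes overlapped between each of these neighbours in the control. The 3 clusters of the subicular or cortical class did not go 1 way. Cluster 19 held 1479 and 1060.5 CPM (-0.48, -0.53 to -0.43) and cluster 21 held 428 and 490.4 CPM (0.20, 0.11 to 0.28). Cluster 38, of only 17 and 45 nuclei, held 2249 and 1630.5 CPM (-0.46, -0.60 to -0.33).

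Brinp3 differed between stages of the oligodendrocyte lineage in both libraries. Committed precursor-like nuclei comprised cluster 18, with 1467 and 1491 CPM, and cluster 27, with 35.3 and 37.6 CPM. Mature oligodendrocyte-like nuclei held 53.1 and 58.6 CPM. They comprised cluster 11 (480 and 733 nuclei) and cluster 15 (665 and 186 nuclei), and the part of this uneven split in the class level was not tested. Brinp1 followed in clusters 18 and 27 with 1407 and 1148 CPM, then 153 and 107 CPM, and oligodendrocyte-like nuclei held 22.98 and 18.4 CPM. Cycling nuclei were split in the same way: cluster 33, whose second-best marker set was oligodendrocyte precursor, held 2277 and 1949 CPM of Brinp3. Cluster 22, which has Eomes among its leading genes and whose second-best set was neuronal intermediate progenitor, held 47.9 and 11.8 CPM, from 50 and 9 UMIs.

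In the other classes Brinp3 was between 3.68 and 359 CPM in the control. Lhx6-lineage interneuron-like nuclei held 359 and 349.9 CPM, Cajal-Retzius-like 125 and 147 CPM, and astrocyte-like 121 and 128 CPM. In the control, the intervals of dentate granule-like and Cajal-Retzius-like nuclei overlapped, as did those of Cajal-Retzius-like and astrocyte-like nuclei. In the library labelled knockout granule-like nuclei, 7th of 16 in the control, were 15th and lay between CA3-like (12.7 CPM) and CA2-like nuclei (6.89 CPM), whose intervals overlapped with theirs. Radial glia-like nuclei had 27 and 17 UMIs, 1.09 and 1.41 times the microglia-like level per nucleus, and are read as background.

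CA1-like and CA3-like nuclei, pyramidal neurons of the hippocampus, held little Brinp3. The CA1-like class does not hold all nuclei with CA1 markers. Cluster 6, of 983 and 1081 nuclei, had CA1 pyramidal as its best set, with 6 of 8 markers raised. It stayed unnamed because Dcn, of another marker set, was among its leading genes. It is in none of the CA1-like levels, ratios or ranks given here. CA1-like nuclei held 57.2 CPM in the control and 46.7 CPM in the library labelled knockout (-0.30, -0.39 to -0.20). CA3-like nuclei held 6.93 and 12.7 CPM, from 204 and 311 UMIs (0.88, 0.62 to 1.14); this was under 2-fold. The CA3-like levels were below those of microglia-like nuclei per UMI (24.2 and 18.1 CPM) and 3.10 and 8.14 times them per nucleus, so no direction is read from them; CA1-like nuclei were above on both scales. The ratio differed between the clusters of each class. In CA3-like cluster 7 the ratio was 0.06 (-0.29 to 0.40), while cluster 20, of 288 and 299 nuclei, went from 47 to 178 UMIs (2.07, 1.61 to 2.58). In CA1-like nuclei cluster 4 gave -0.27 and cluster 23, of 179 and 349 nuclei, gave 0.22 (-0.09 to 0.54). With called doublets kept, the CA3-like ratio was -0.06.

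**Figure D3:**
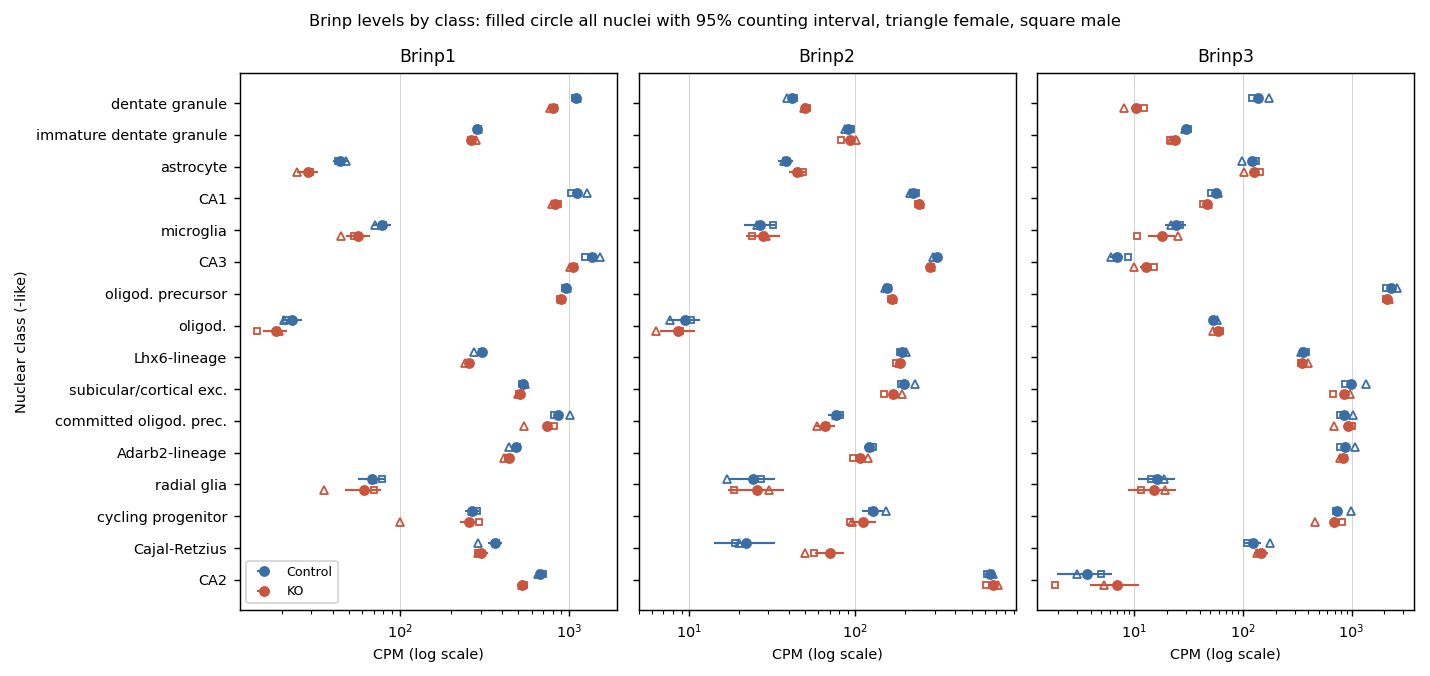
Level of each Brinp gene in CPM (log axis) in the 16 classes, for the control and the library labelled knockout (KO); filled circles are all nuclei with 95% counting intervals, triangles female nuclei and squares male nuclei. Brinp3 is highest in oligodendrocyte precursor-like nuclei (2290.4 and 2131), Brinp2 in CA2-like nuclei (645 and 676) and Brinp1 in CA3-like nuclei (1358 and 1061).

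Brinp1 was high in excitatory neuron-like nuclei and in early cells of the oligodendrocyte lineage, and in most classes it was lower in the library labelled knockout, by less than 2-fold. The levels were 1358 and 1061 CPM in CA3-like nuclei, 1107 and 828 CPM in CA1-like nuclei and 1103 and 804 CPM in dentate granule-like nuclei. Oligodendrocyte precursor-like nuclei held 956 and 897 CPM and committed precursor-like nuclei 862 and 739 CPM, above the CA2-like, subicular or cortical excitatory-like and interneuron-like classes. CA1-like and granule-like levels in the control overlapped in their intervals, and the other neighbours among these 5 did not. The sexes overlapped between these control neighbours, save granule-like and oligodendrocyte precursor-like nuclei. CA1-like female nuclei, for example, held 1278 CPM and CA3-like male nuclei 1243 CPM. In the library labelled knockout oligodendrocyte precursor-like nuclei came before CA1-like and granule-like nuclei. Brinp1 was found in 99.5% and 98.9% of granule-like nuclei, with 13.6 and 9.07 UMIs per nucleus. With every nucleus thinned to 2000 UMIs the shares were 83.5% (82.4% to 84.6%) and 75.6% (74.1% to 77.0%).

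The log2 ratio of Brinp1 was -0.46 (-0.48 to -0.44) in granule-like nuclei, -0.42 (-0.44 to -0.40) in CA1-like and -0.36 (-0.38 to -0.33) in CA3-like nuclei. Its counting interval lay below 0 in 13 of 16 classes and above 0 in none. Over the 16 classes together, with genes counted once per class, 12.5% of the intervals lay below 0 and 18.4% above 0. The share below 0 ran from 5.17% to 29.1% by class. These genes were not matched to Brinp1 in UMIs, and an interval narrows with more UMIs. The 13 include microglia-like, astrocyte-like and oligodendrocyte-like nuclei, whose Brinp1 is at or near the microglia-like level per nucleus (1.10 and 1.59 times it in oligodendrocyte-like nuclei), and 5 of the 13 had an interval that held 0 in 1 sex: committed precursor-like in male nuclei, and immature granule-like, oligodendrocyte-like, Adarb2-lineage interneuron-like and Cajal-Retzius-like in female nuclei. The clusters of the immature class went opposite ways, with 72.9 and 49.1 CPM in cluster 0 (-0.57, -0.75 to -0.39) and 624 and 662 CPM in cluster 12 (0.09, 0.01 to 0.16). Cluster 0 was no higher per UMI than microglia-like nuclei (78.9 and 56.5 CPM), and the part of free RNA in its difference was not tested. The other 3 classes, whose intervals held 0, were radial glia-like, cycling progenitor-like and subicular or cortical excitatory-like. The share of genes with a lower ratio than Brinp1 was 4.49% in granule-like, 4.15% in CA1-like and 3.47% in CA3-like nuclei. It was 2.90% in Lhx6-lineage interneuron-like nuclei (306 and 256 CPM), a lineage that arises largely outside the Emx1 domain. In microglia-like nuclei Brinp1 was also lower, at 78.9 and 56.5 CPM (-0.48, -0.78 to -0.19), a level that this class should not hold of its own.

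The sexes differed in the size of the Brinp1 difference. In CA1-like nuclei the log2 ratio was -0.70 in female and -0.24 in male nuclei, and in CA3-like nuclei -0.58 and -0.21. The female control values, from 1 mouse, were the highest of the 4 in both classes, at 1278 CPM in CA1-like and 1513 CPM in CA3-like nuclei. In granule-like nuclei the ratios were -0.52 and -0.40. Wider gaps stood in committed precursor-like nuclei, with -0.91 in female and 0.01 (-0.10 to 0.12) in male nuclei, and in cycling progenitor-like nuclei, with -1.40 (from 110 and 26 UMIs) and 0.05. The difference between the sexes was not tested.

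Astrocyte-like nuclei had the lowest Brinp1 ratio of the 16 classes, -0.64 (-0.89 to -0.40), at 44.5 and 28.5 CPM. These levels were 1.21 and 1.19 times the microglia-like level per nucleus, so they are read as background.

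Brinp2 was highest in CA2-like nuclei, the small pyramidal field between CA3 and CA1, with 645 CPM in the control and 676 CPM in the library labelled knockout (0.07, -0.03 to 0.16). CA3-like nuclei held 311 and 281 CPM (-0.15, -0.19 to -0.10), CA1-like 224 and 242 CPM (0.11, 0.06 to 0.16) and granule-like 41.6 and 49.9 CPM (0.26, 0.17 to 0.35). The counting intervals of CA2-like, CA3-like and CA1-like nuclei did not overlap in either library, nor did those of CA2-like and CA3-like nuclei between the sexes. Brinp2 was 2-fold or more apart in 1 of the 14 classes in which it had enough counts: Cajal-Retzius-like nuclei, where 24 and 96 UMIs gave 21.9 and 70.3 CPM (1.66, 1.02 to 2.39). Of the genes with enough counts in that class, 2.42% were past the size rule, higher. Over the 16 classes together, with genes counted once per class, 1.07% were higher and 0.355% lower. Brinp2 was in 9.50% and 16.5% of the nuclei, 179 and 237 in number; female and male nuclei gave 1.27 and 1.51. With nuclei thinned to 2000 UMIs the ratio was 0.64 (-0.47 to 1.93), under 2-fold. The control level there was not above that of microglia-like nuclei per UMI (26.6 and 27.9 CPM in the libraries) and was 2.29 times it per nucleus, against 8.07 times in the library labelled knockout.

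**Figure D4:**
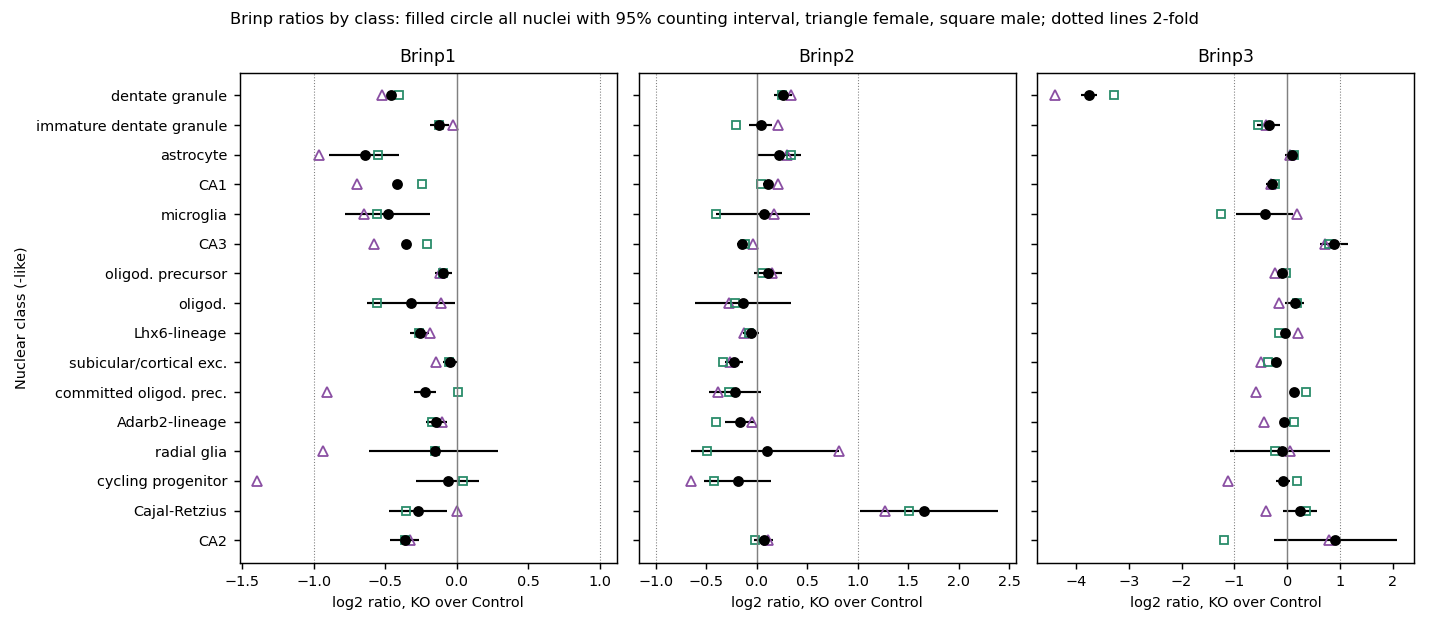
Log2 ratio of the library labelled knockout over the control for each Brinp gene in the 16 classes; filled circles are all nuclei with 95% counting intervals, triangles female and squares male nuclei, dotted lines 2-fold. Over all nuclei Brinp1 lies below 0 in the 16 classes, with an interval that holds 0 in 3 and single-sex points just above 0 in 3; Brinp2 lies between -0.22 and 0.26 apart from Cajal-Retzius-like nuclei (1.66), and Brinp3 far below 0 in dentate granule-like nuclei (-3.75).

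The 3 genes had different profiles over the 16 classes of the control library. Pearson correlations of log2(CPM + 1) were 0.72 between Brinp1 and Brinp2, 0.20 between Brinp1 and Brinp3 and 0.01 between Brinp2 and Brinp3; the 16 values come from 1 library. Among 12687 genes the profiles most like Brinp1 were those of Susd4 (0.92), Sez6l (0.91), Cyfip2 (0.91), Ica1 (0.90) and Fam169a (0.89). Those most like Brinp2 were Slc16a14 (0.90), Nr4a1 (0.90), St8sia1 (0.88), Nrxn3 (0.86) and Ptpn5 (0.86). Those most like Brinp3 were Gm15584 (0.97) and Gm29514 (0.89), which overlap it, then the glutamate receptor subunit gene Grin3a (0.85), Lrrtm3 (0.85) and the kainate receptor subunit gene Grik3 (0.84).

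Among relatives and pathway genes of the family, Bmp6 and Rarb were past the size rule in granule-like nuclei. In the RefSeq table Astn1 lies directly after Brinp2, and Astn2 is the next gene but 1 before Brinp1. Of 9 MACPF genes, 2 had enough counts: Astn1, which encodes a neuronal guidance and migration protein, at 293 and 275 CPM (-0.09), and its paralogue Astn2 at 44.9 and 58.3 CPM (0.38). Of 32 BMP pathway genes, 10 had enough counts and 1, the ligand gene Bmp6, was past the size rule, higher: 1185 and 4688 UMIs, 21.9 and 122.5 CPM (2.48, 2.39 to 2.58). The median of the 10 was -0.10. Of 22 retinoic acid genes, 5 had enough counts and 1, the receptor gene Rarb, was past it, higher, at 48.3 and 137 CPM (1.51, 1.44 to 1.57). The background for higher genes in this class was 2.28%, below the share in both pathway lists, which rests on 1 gene in each. The lists were chosen with earlier results of these data known, so nothing is read from these shares. In CA1-like nuclei 1 of 11 BMP genes, Bmper, which encodes a BMP-binding regulator, was higher (1.60), and none of 4 retinoic acid genes; in CA3-like nuclei none of 9 BMP and none of 5 retinoic acid genes were past the size rule. In those classes the background for higher genes was 3.45% and 1.25%.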

How the data were processed

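The deposited matrices hold UMI counts per gene and nucleus, not normalized, which the authors produced using Cell Ranger 8.0.1, per the file headers, on build mm39 per the submitters' processing notes. The 3 members, gene lists and markers were chosen with earlier results of these data known. Nuclei with fewer than 500 genes or over 5% mitochondrial UMIs were left out, as were Scrublet doublets (expected rate 0.1): 3277 control nuclei (13.1%) and 2474 of the library labelled knockout (10.7%). Both libraries were clustered together with scanpy 1.11.5 and leidenalg 0.10.2 (3000 variable genes, 30 components, 15 neighbours, resolution 1) in Python 3.11.15. The Brinp genes, Xist, Tsix, Y-linked and mitochondrial genes were left out of the clustering. Clusters were named from 22 marker sets; 10.7% and 11.5% of nuclei stayed unnamed.

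UMIs were summed per class and library, and 0.5 UMI was added for log2 ratios. Intervals are exact Poisson, conditional binomial or Clopper-Pearson at 95%. Sex was called per nucleus: 2 or more Xist UMIs without Y-linked UMIs for female, Y-linked UMIs without Xist for male. Named genes were the members, Cic and Etv4, the 5 genes most like each member, list members past the size rule in granule-like, CA3-like or CA1-like nuclei, Astn1 and Astn2, and overlapping or neighbouring genes. The sum and ratio step was tested on simulated counts. Alternatives covered scaling, doublets, filters, clustering, depth, sex, free RNA and the added count. Cluster-level values and removal of shared barcodes were chosen after seeing the data. Library and genotype coincide, so they cannot be told apart.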

Additional observations from a re-analysis of the deposited data

Results flagged for a closer look

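Over the 3 genes and 16 classes, female and male nuclei gave log2 ratios (library labelled knockout over control) of opposite sign in 4 cases. These are cases with counting intervals on either side of 0. The difference was not tested, and female nuclei come from 1 mouse per library. The share of all genes with such a pair of ratios was not counted, so nothing is read from the number of cases. For Brinp2 in immature dentate granule-like nuclei the ratio was 0.21 in female and -0.20 in male nuclei. For Brinp3 it was -0.45 and 0.12 in Adarb2-lineage interneuron-like nuclei. In Lhx6-lineage interneuron-like nuclei Brinp3 gave 0.20 and -0.15. In committed oligodendrocyte precursor-like nuclei Brinp3 gave -0.59 and 0.35. In these 4 cases the ratio over all nuclei was not past the size rule.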

How the results depend on the processing

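No paired analysis was possible because each group has 1 library. In dentate granule-like nuclei Brinp3 was lower and over 2-fold apart under all 14 alternatives, from -4.40 to -1.75: -4.40 in female nuclei, -3.27 in male nuclei, -4.17 with free RNA subtracted, -1.75 in cluster 1 only and -3.13 in cluster 3 only, each outside the counting interval of -3.75. Brinp1 there ranged from -0.52 to -0.40 (-0.49 with size factors and with TMM, -0.52 in female nuclei, -0.40 in male nuclei, -0.52 in cluster 3 only). Brinp2 was -0.034 in cluster 3 only. Brinp3 in CA1-like nuclei was -0.42 with size factors, -0.41 with TMM, -0.19 with at least 1000 genes and at most 1% mitochondrial UMIs, and 0.22 in cluster 23 only. Brinp3 in CA3-like nuclei was -0.060 with doublets kept, 1.15 thinned, 1.25 with free RNA subtracted, 0.059 in cluster 7 only and 2.07 in cluster 20 only. The cause of these shifts was not tested. With at least 20 UMIs and no CPM minimum, 975 genes in place of 282 were 2-fold apart in granule-like nuclei, 557 in place of 133 in CA3-like and 1124 in place of 339 in CA1-like nuclei. Size factors moved the split of higher and lower genes from 102 and 31 to 87 and 43 in CA3-like nuclei and from 285 and 54 to 219 and 74 in CA1-like nuclei. Differences between mice and between preparations cannot be measured with 1 pooled library per group.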

Other observations

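Hilar mossy cell-like nuclei, the excitatory neurons of the dentate hilus, were too few for the main set (71 control nuclei and 111 of the library labelled knockout). They held 80.5 and 38.1 CPM of Brinp3, from 152 and 94 UMIs (log2 ratio -1.08, -1.47 to -0.70), and 778 and 518 CPM of Brinp1 (-0.59). Brinp2 there was at 264 and 257 CPM. A cluster that stayed unnamed, with Fn1 among its leading genes (532 and 477 nuclei), held 1135 and 882 CPM of Brinp3 (-0.36) and 1010.4 and 748 CPM of Brinp1 (-0.43). The mossy cell-like and Fn1 clusters had low Etv4 in the control, at 1.59 and 2.46 CPM, and 50.6 and 84.3 CPM in the library labelled knockout. Other unnamed clusters had a higher Brinp3 CPM in the library labelled knockout: cluster 17, with Npsr1 among its leading genes (371 and 434 nuclei), held 15.6 and 35.4 CPM (1.18, 0.83 to 1.54), but the share of nuclei with a Brinp3 UMI was 12.7% and 6.22%, and cluster 26, of low depth (224 and 113 nuclei), held 79.2 and 213 CPM from 32 UMIs in each (1.43, 0.68 to 2.18), with a UMI in 8.93% and 7.96% of nuclei. In both the share of nuclei was lower in the library labelled knockout while the CPM was higher. These clusters were picked out after their values were seen.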
